A study of Mus musculus with 30 samples.

Results

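Receptor-deleted brown preadipocytes were compared between day 7 and day 2 of differentiation (D7 and D2), the later stretch of the course, by RNA sequencing. All genes were taken whose RPKM, the reads of a transcript scaled to its length and to the library's total, reached 1 in at least 1 of the 2 libraries, and 12404 of 23109 genes did. Each side holds 1 library, so there is no replicate check and no test. A gene was called higher or lower at D7 when log2(RPKM + 1) differed by at least 1, and all differences below are D7 minus D2 on this scale. Because 1 is added to the RPKM, the scale asks for more than a doubling of RPKM at low levels. The words rose and fell are used only for genes past that size, levels are RPKM, and D7 and D2 with no line named are the Cre libraries.

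The cells were isolated from interscapular brown fat of newborn pups of strain C57BL/6J, homozygous for a loxP-flanked glucocorticoid receptor gene, Nr3c1 (GR f/f), and were immortalised with SV40 T antigen. Cre D7 and Cre D2, the libraries compared, come from cells infected with a Cre retrovirus, which deletes the receptor gene. Vec D7 and Vec D2, set beside them, come from the same floxed cells infected with the empty retrovirus, and D0 (before induction) and 4h libraries exist for both lines. Cells were plated 4 days before induction, and at confluence were given a mix for 4 hours. It held the receptor ligand dexamethasone at 2 µg/ml, indomethacin at 0.125 mM, insulin at 0.02 µM, the phosphodiesterase inhibitor IBMX at 0.5 mM and the thyroid hormone T3 at 1 nM. The sources used here do not give the later medium, nor whether the libraries came from separate cultures or a line is a single clone. The immortalising antigen and the dexamethasone pulse are shared by the Cre and the Vec cells.

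When preadipocytes differentiate they leave a fibroblast-like state and switch on the nuclear receptor PPARγ and its partner C/EBPα, which drive the genes for storing fat and secreting adipokines. Brown adipocytes add a dense set of mitochondria and the uncoupling protein Ucp1, with which they burn fat to make heat. Glucocorticoids are a standard part of the induction mix, and the receptor acts as a ligand-dependent transcription factor. Whether differentiation runs its course without the receptor was the question of the study, and day 7 against day 2 shows its second stage.

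Nr3c1 had an RPKM of 6.67 at Cre D7 and 8.07 at Cre D2, with 4.81 at Cre D0 and 4.04 at Cre 4h. In the Vec line Nr3c1 stood at 32.1 at D7 and 21.3 at D2, with 24.3 at D0 and 12.9 at 4h, so every Cre library lay below every Vec library. Exons outside the deleted part can still be counted, and the values do not tell how many cells kept the gene. The Cre D7 library held 24.7 M reads and Cre D2 26.5 M, against a range of 7.71 to 28.9 M over the 8 libraries. An RPKM of 1 was reached by 12176 genes at Cre D7 and 11695 at Cre D2, and the 10 most abundant genes took 6.17% of the gene reads at Cre D7 and 4.81% at Cre D2. The floor of 3 reads, the limit that a count of 0 allows, was an RPKM of 0.0481 at Cre D7 and 0.0448 at Cre D2 at the median transcript length. Single-gene folds carry 95% exact binomial (Clopper-Pearson) intervals, which cover counting error only.

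At Cre D7, 919 of the 12404 genes were higher than at Cre D2 (7.41%) and 257 were lower (2.07%), while 11228 moved by less than 1. The median difference over all genes was -0.06 and the SD over genes 0.64. A list whose calls lie near these shares tells nothing about its members. In the Vec line 1209 of 12321 genes were higher at D7 (9.81%) and 617 lower (5.01%). Of the genes higher in Cre, 638 were also higher in Vec, which is 69.4% of the Cre list and 52.8% of the Vec list. Of those lower in Cre, 125 were lower in Vec, 48.6% of the Cre list and 20.3% of the Vec list. At the edges of the rule, Rassf7 was just inside as higher (2.34 at D7 against 0.668 at D2) and Samd14 just outside (18.2 at D7 against 8.59 at D2). Cox14 was just inside as lower (48.0 at D7 against 97.0 at D2) and Tomm70a just outside (20.6 at D7 against 42.2 at D2). At the edge of the level filter, Epb41l5 just passed (1.00 at D7 against 0.515 at D2) and Dlx1as just failed (0.9997 at D7 against 0.459 at D2).

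**Figure D1:**
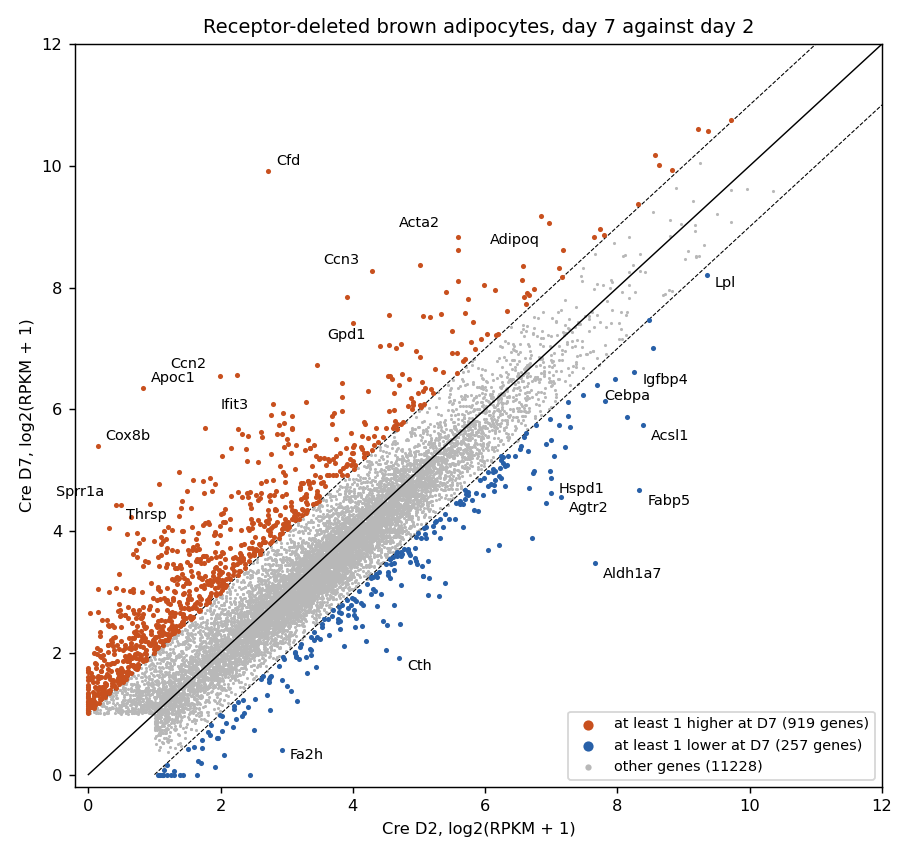
Level of each of the 12404 genes in the Cre D7 library (vertical axis) against the Cre D2 library (horizontal axis), both as log2(RPKM + 1). The solid line marks equal levels and the dashed lines a difference of 1; 919 orange genes lie above and 257 blue genes below them, with Cfd farthest above and Aldh1a7 farthest below.

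The course of the called genes over the 4 times is a description: Cre D7 and Cre D2 levels chose them, and choosing genes low at Cre D2 also favours a D2 level below those of D0 and 4h. The genes higher at D7 had a median RPKM in Cre cells of 5.78 before induction, 4.96 at 4h, 2.01 on D2 and 9.0 on D7. In the Vec libraries, which the choice did not use, the medians of these genes were 5.73 before induction, 4.49 at 4h, 1.46 on D2 and 7.72 on D7. The genes lower at D7 had medians of 6.12, 9.05, 22.6 and 8.41 at the same times in Cre, and of 6.07, 8.97, 24.3 and 11.3 in Vec. Some of the higher genes were adipocyte genes near 0 at D0, and others were matrix, contractile and interferon genes already abundant at D0, as the lists below show.

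Secreted products of fat cells were among the largest differences. Cfd, the complement protease adipsin, had an RPKM of 966 at Cre D7 and 5.60 at Cre D2, a 173-fold difference (interval 146 to 206). Apoc1, an apolipoprotein, stood at 80.4 on D7 and 0.769 on D2, and Hp, haptoglobin, at 93.3 on D7 and 3.76 on D2. Adipoq, adiponectin, was at 391 at D7 against 144 at D2, 2.72-fold higher (2.63 to 2.81). Of 30 adipokine and secreted-factor genes 24 passed the level filter; 16 were higher at D7 and 1 lower, with a median difference of 1.51, against a median of -0.06 over all genes. The higher ones included Retn, resistin (26.8 at D7 against 5.12 at D2), Rarres2, chemerin (24.1 at D7 against 2.66 at D2), and Gpx3, the plasma glutathione peroxidase (134 at D7 against 25.4 at D2). Lep, leptin, had 103 reads at D7 and 0 at D2, at least 36.9-fold higher over a floor of 3 reads. The one that fell was Angptl4, an inhibitor of lipoprotein lipase (28.9 at D7 against 73.0 at D2). Nampt, an enzyme of NAD synthesis (23.2 at D7 against 25.5 at D2), and Rbp4, a retinol carrier (4.66 at D7 against 6.22 at D2), did not pass the size rule. In Vec 25 of the list passed, 17 were higher and 1 lower, with a median of 2.16. Cfd was at 2092 at Vec D7 and 4.05 at Vec D2. In bulk RNA, fewer cells of a type and less RNA per cell cannot be told apart.

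Complement genes went the same way. Of 16 listed genes 12 passed the filter, 10 were higher and none lower, with a median of 1.66. Cfd counts here too. In Vec 12 passed, 8 were higher and none lower, with a median of 2.01. C3, the central component, was at 187 at Cre D7 and 22.5 at Cre D2 (8.32-fold, 8.01 to 8.64). C4b stood at 48.4 on D7 and 5.09 on D2, and the C1 inhibitor Serping1 at 36.5 on D7 and 3.07 on D2. The 3 C1q chains, C1qa, C1qb and C1qc, which macrophages make, had 0 reads in both libraries.

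The master regulators of fat cells were not among the genes that rose. Pparg had an RPKM of 32.1 at Cre D7 and 33.7 at Cre D2, and an interval of its fold of 0.888 to 1.02. Cebpa was at 83.2 on D7 and 205 on D2, 2.46-fold lower (2.39 to 2.54). In the Vec line Pparg was at 102 at Vec D7 and 43.9 at Vec D2, and Cebpa at 214 at Vec D7 and 207 at Vec D2. Among 26 adipogenic regulators Vec had 8 higher and 4 lower, with a median of 0.48. In Cre 2 were higher (7.69%) and 1 lower (3.85%), near the shares over all genes, and the median was 0.08. The higher ones were Mlxipl, which encodes the glucose-sensing factor ChREBP (10.3 at D7 against 0.806 at D2), and Nr1h3, the oxysterol receptor LXRα (8.71 at D7 against 3.54 at D2). Cebpb (50.8 at D7 against 77.0 at D2) and Cebpd (14.3 at D7 against 11.3 at D2), which act early in differentiation, moved by less than 1. Of 20 regulators of brown identity 16 passed, 2 higher and 1 lower. Irf4 (4.72 at D7 against 1.23 at D2) and the thyroid hormone receptor Thrb (1.97 at D7 against 0.371 at D2) rose, and Ppargc1b, a coactivator of mitochondrial genes, fell (3.88 at D7 against 11.5 at D2).

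**Figure D2:**
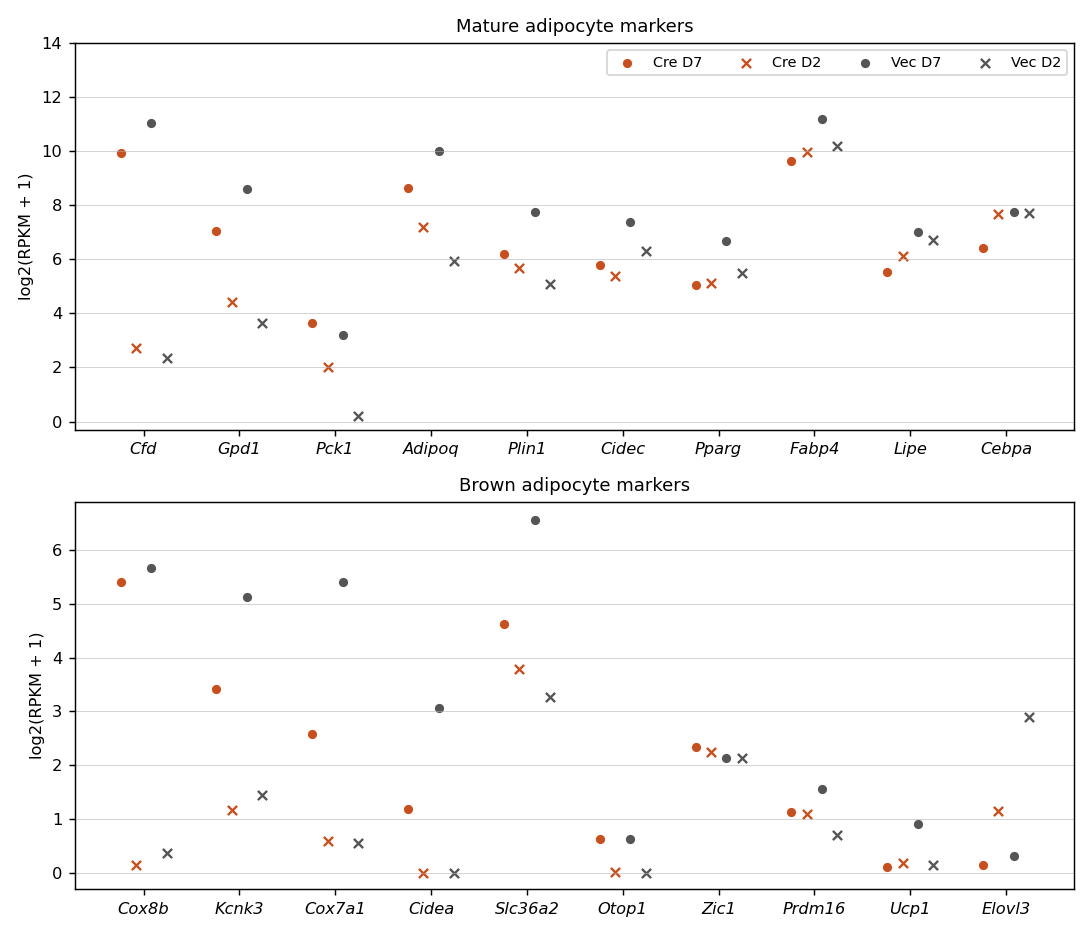
Levels as log2(RPKM + 1) of 10 mature adipocyte markers (upper panel) and 10 brown adipocyte markers (lower panel), with Cre D7, Cre D2, Vec D7 and Vec D2 side by side for each gene; circles are D7 and crosses D2, orange is Cre and grey Vec, 1 library each. For Cfd, Gpd1 and Cox8b the Cre circle stands far above the Cre cross; for Cebpa it stands below; Ucp1 lies near 0 in all 4 libraries.

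Genes for making and storing fat split in both directions. Gpd1, which makes glycerol 3-phosphate, was at 131 at Cre D7 and 20.3 at Cre D2 (6.44-fold, 6.10 to 6.81). Scd1, the stearoyl-CoA desaturase, was at 531 on D7 and 124 on D2, and Thrsp, a lipogenic regulator, at 21.6 on D7 and 1.67 on D2. The acyltransferases Dgat2 and Agpat2 fell: Dgat2 was at 25.6 on D7 and 77.4 on D2, and Agpat2 at 51.6 on D7 and 155 on D2. Lpin1, a phosphatidate phosphatase, fell as well (15.8 at D7 against 40.2 at D2). In the list of 30 fat synthesis genes 29 passed, 6 were higher and 3 lower, and the median was -0.32. The Vec line had 13 higher and 1 lower in the same list, and a median of 0.93.

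Lipid droplet and lipolysis genes divided too, with 4 higher and 5 lower of 20 that passed among 23 and a median of 0.09. The higher ones were Pnpla3 (13.3 at D7 against 0.981 at D2), the glycerol channel Aqp7 (6.06 at D7 against 1.3 at D2), Plin4 (34.7 at D7 against 11.5 at D2) and Cidea, described below. The lower ones were G0s2, an inhibitor of the lipase ATGL (36.8 at D7 against 131 at D2), Abhd15, Fitm2, Plin2, a droplet coat protein (58.1 at D7 against 151 at D2), and Abhd5, an activator of ATGL (23.5 at D7 against 57.1 at D2). The other droplet proteins Plin1 (72.4 at D7 against 50.5 at D2) and Cidec (54.2 at D7 against 40.6 at D2) stayed within 1.

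Fatty acid uptake genes included some of the steepest falls. Fabp5, a fatty acid binding protein, was at 24.7 at Cre D7 and 321 at Cre D2, 13.0-fold lower (11.9 to 14.2). Acsl1, which activates long-chain fatty acids, was at 52.7 on D7 and 334 on D2, 6.34-fold lower (6.15 to 6.53). Lpl, lipoprotein lipase, was at 294 on D7 and 653 on D2. With the receptor Ffar4 (0.959 at D7 against 3.06 at D2) these were the 4 lower genes of 18 that passed among 21; 1 was higher, Acsl5, and the median was -0.31. Fabp4, the adipocyte relative of Fabp5, was among the most abundant genes of both libraries, at 786 on D7 and 990 on D2, and moved by less than 1. The PPAR site, AGGTCA repeated after 1 base and searched on both strands, was in none of 20 promoters of the adipokine list, 26 of the lipid droplet list and 19 of the uptake list, and in 0.0396% of all promoters. Letters this rare are not expected in lists of this size, so their absence says nothing about these genes. Aldh1a7, an aldehyde dehydrogenase, had the largest fall of all named genes (10.1 at D7 against 202 at D2).

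Other genes with the widest differences fell outside the fat metabolism lists. Ccn3, a matricellular protein, was at 310 on D7 and 18.6 on D2 (16.6-fold, 15.7 to 17.6), Cemip, which breaks down hyaluronan, at 17.8 on D7 and 0.562 on D2, and Cryab, a small heat shock protein, at 50.5 on D7 and 2.39 on D2. Each of these had a D0 level well above D2, with 120 for Ccn3, 6.82 for Cemip and 33.7 for Cryab. On the falling side Agtr2, an angiotensin receptor, was at 22.6 on D7 and 141 on D2 (6.21-fold lower, 5.90 to 6.55), the kinase gene Pim3 at 13.8 on D7 and 103 on D2, and Fgf10, a growth factor, at 6.72 on D7 and 34.1 on D2. Their D0 levels were 11.2 for Agtr2, 9.13 for Pim3 and 3.52 for Fgf10, below those of D2. Adh1, an alcohol dehydrogenase, was at 21.0 on D7 and 120 on D2.

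Thermogenic genes rose in a larger share than all genes, though most of those that passed the filter did not. Cox8b, a muscle and brown fat subunit of cytochrome oxidase, had 370 reads at Cre D7 and 1 read at Cre D2, or an RPKM of 41.2 on D7 and 0.104 on D2, a ratio of 397 with an interval of 70.8 to 15728. Cox7a1 stood at 4.98 on D7 and 0.515 on D2, the potassium channel Kcnk3 at 9.62 on D7 and 1.26 on D2, and the creatine kinase Ckb at 7.80 on D7 and 1.53 on D2. Cidea, a droplet protein typical of brown fat, had 37 reads at D7 and 0 at D2, at least 13.2-fold higher over the floor. Ucp1 itself had 3 reads at Cre D7 and 6 at Cre D2, or an RPKM of 0.0738 on D7 and 0.138 on D2, and its level of 0.882 at Vec D7 was low too. Of 32 thermogenic genes 18 passed, 6 were higher (33.3%, against 7.41% over all genes) and none lower, and the median was 0.63. Another 12 moved by less than 1, and the lowest difference was -0.99. In the Vec line 18 of the list passed, 12 were higher and 1 lower, and the median was 1.33. Of the factors that mark brown precursors, Zic1 (4.07 at D7 against 3.71 at D2) and Prdm16 (1.18 at D7 against 1.13 at D2) were present at both times. Muscle makes Cox8b and Cox7a1 as well, and the summed RPKM of 38 skeletal muscle genes was 76.7 at D7 and 26.1 at D2; its part in these values was not tested. Among 24 genes of the β-adrenergic and cAMP pathway 23 passed. Of these 7 rose (30.4%) and 5 fell (21.7%), against 7.41% and 2.07% over all genes. Among them were the receptor Adrb3 (16.8 at D7 against 2.50 at D2) and the kinase subunit Prkar2b (30.5 at D7 against 125 at D2).

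Mitochondrial genes shifted downward by small amounts. Of 75 respiratory chain genes that passed in 3 lists, 66 had a negative difference, but only 2 fell by at least 1 and 3 rose, and the median was -0.45. The 3 that rose were Cox8b, Cox7a1 and Cox6a2 (6.45 at D7 against 1.43 at D2), the muscle-type isoforms of complex IV; Ndufs5 of complex I (8.51 at D7 against 19.6 at D2) and Cox7c (6.49 at D7 against 14.9 at D2) fell. The same lists had a median of 0.05 in the Vec line. Of 21 TCA cycle genes none rose and 1 fell, Idh3a, a subunit of isocitrate dehydrogenase (30.7 at D7 against 105 at D2), with a median of -0.42. The mitochondrial chaperones changed more: Hspd1 was at 28.3 on D7 and 127 on D2, 4.49-fold lower (4.25 to 4.73), and its partner Hspe1 at 23.6 on D7 and 126 on D2. With Tomm20, an import receptor, they were the 3 that fell among 27 genes of mitochondrial biogenesis, where none rose. Both chaperones fell in Vec too, Hspd1 with 46.2 at Vec D7 and 188 at Vec D2, and Hspe1 with 36.4 at Vec D7 and 133 at Vec D2. The biogenesis list had 2 higher and 3 lower of 27 in Vec, with a median of -0.29, against -0.38 in Cre. Fatty acid oxidation had 0 higher and 1 lower of 22, Hadh (36.8 at D7 against 86.5 at D2), with a median of -0.14. The letters TCA directly before AGGTCA, the site of estrogen-related receptors, were searched on both strands and found in 1 of 17 promoters of complex V and 1 of 24 of the TCA cycle. They were in none of 35 promoters of complex I, 16 of complexes III and IV and 19 of fatty acid oxidation, and in 0.423% of all promoters. At so low a share, lists of this size are too small for these counts to tell the lists apart.

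Glucose uptake showed few calls, and cholesterol synthesis leaned downward. Of 29 glycolytic and uptake genes 27 passed, 3 rose and 1 fell, close to the shares over all genes, with a median of 0.06, and in Vec 11 rose. Slc2a4, the insulin-regulated transporter GLUT4, was at 7.84 at Cre D7 and 0.935 at Cre D2 (8.39-fold, 6.53 to 10.9), and Pdhb of pyruvate dehydrogenase fell (23.1 at D7 against 52.5 at D2). Cholesterol synthesis had no gene higher and 3 lower of 22 that passed among 23: Hsd17b7 (6.79 at D7 against 20.4 at D2), Mvd and Lss. The lower share was 13.6%, against 2.07% over all genes. Of the 22, 17 had a negative difference, and the median was -0.41. In Vec 4 of the list were higher and none lower, with a median of 0.24. Gapdh, Pgk1 and several others with many near-identical copies in the genome had very low values here, Gapdh 0.427 at D7 and 0.612 at D2, and their values are uncertain, since the sources used here do not say how reads with several matches were placed. The same doubt touches the actins Acta1 and Acta2, C4b and Aldh1a7, which have close paralogs, and Fabp5, Hspd1, Hspe1, Cox7c and Tomm20, which have processed copies.

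Smaller metabolic and stress lists held few calls each, to be read beside 7.41% higher and 2.07% lower over all genes. With so few calls, the genes named below are given as single genes and not as results about their lists. Of 31 peroxisome genes 29 passed, 2 rose (6.90%) and 1 fell (3.45%), close to the shares over all genes. Abcd2, a transporter of very long fatty acids (7.11 at D7 against 1.46 at D2), and Phyh (11.0 at D7 against 3.96 at D2) rose, and the catalase gene Cat fell. Of 29 oxidative stress genes 27 passed, 3 rose and 3 fell. Txnip, an inhibitor of thioredoxin, rose (115 at D7 against 31.3 at D2), and Hmox1, heme oxygenase, fell (40.6 at D7 against 147 at D2). Mitochondrial carriers had 1 higher and 2 lower of 25 that passed among 27, and Mpc2, part of the pyruvate carrier, was at 42.0 on D7 and 120 on D2. Of 23 genes of hypoxia and vessel growth 21 passed, 3 rose and 2 fell, led by Adm, the vasodilator adrenomedullin (26.2 at D7 against 1.09 at D2), and Ero1a, an oxidase of the endoplasmic reticulum (6.66 at D7 against 38.2 at D2). In the retinoid list 2 of 15 that passed rose, Aldh1a2, which makes retinoic acid (4.09 at D7 against 0.133 at D2), and Crabp1, which binds it (37.9 at D7 against 14.9 at D2). Branched-chain amino acid genes had 0 higher and 1 lower of 23, steroid receptors and enzymes 2 higher and 0 lower of 17, early cAMP genes 0 higher and 2 lower of 19, and clock genes 1 higher and 0 lower of 18.

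**Figure D3:**
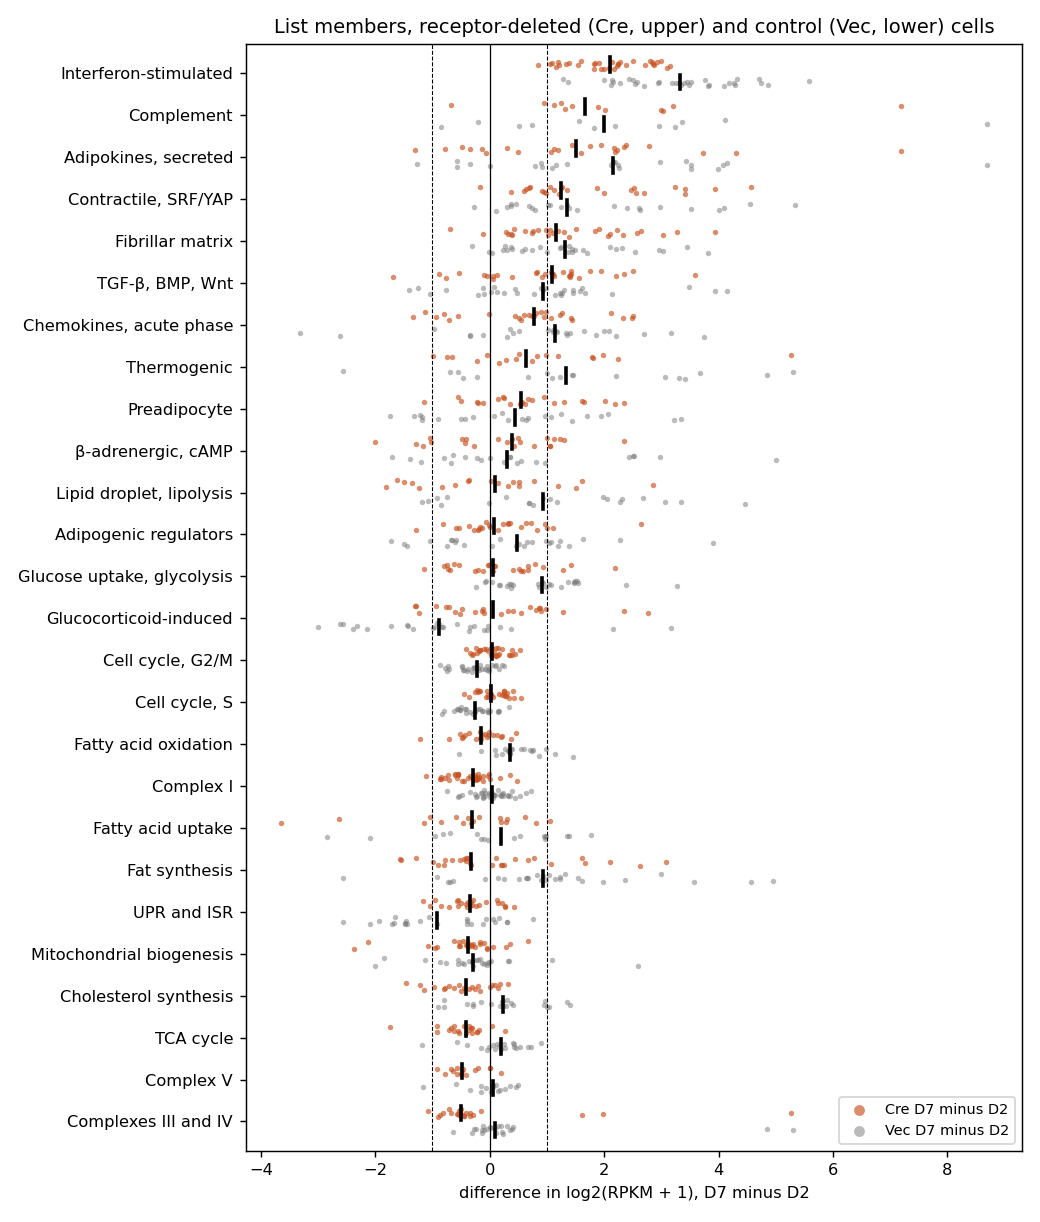
Difference between D7 and D2 on the log2(RPKM + 1) scale for the members of 26 gene lists that passed the level filter; in each list the upper row of points is Cre and the lower row Vec, each point is a gene, black ticks are medians and dashed lines mark -1 and 1. The interferon-stimulated list has the highest Cre median, 2.11, and complexes III and IV the lowest, -0.50.

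Interferon-stimulated genes moved together. Of 34 listed genes all passed the filter and 33 were higher at D7, none lower, with a median difference of 2.11. Ifit3, an antiviral protein, was at 59.0 at Cre D7 and 5.76 at Cre D2 (10.3-fold, 9.11 to 11.6). Irf7, a transcription factor of interferon induction, was at 60.7 on D7 and 6.71 on D2 (9.04-fold, 8.06 to 10.2). Isg15, a ubiquitin-like protein, was at 132 on D7 and 22.4 on D2, and Psmb8, an immunoproteasome subunit, at 23.6 on D7 and 2.37 on D2. Rsad2, the antiviral enzyme viperin, was at 15.0 on D7 and 1.22 on D2, and B2m, the light chain of MHC class I, at 1156 on D7 and 380 on D2. These genes were not new at D7: the list's median RPKM in Cre cells was 25.6 before induction, 33.5 after 4 hours, 6.58 on D2 and 33.6 on D7, so D2 was the low point. At D7, 28 of the 34 lay within 1 of their own D0 level. In Vec all 34 rose, with a median of 3.33, and Vec D2 levels were lower still, 1.44 for Ifit3 and 1.45 for Irf7. The difference between D7 and D2 was at least 1 smaller in Cre than in Vec for 23 of the 34.

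The promoters of 4 of these genes, those with the largest differences among members with an entry printed here, are shown because no other list searched for a motif had as large a share of members called in 1 direction. Each runs from 250 bases before to 50 after the start, 300 bases, from RefSeq on GRCm38.p6: Ifit3 chr19:34583279-34583578 (+), Rsad2 chr12:26456403-26456702 (-), Irf7 chr7:141266375-141266674 (-) and Psmb8 chr17:34197945-34198244 (+). Capitals mark the core of an interferon response element, GAAA, any 2 bases and GAAA again, searched on both strands; where it lies on the other strand it reads TTTC, 2 bases and TTTC.
Ifit3: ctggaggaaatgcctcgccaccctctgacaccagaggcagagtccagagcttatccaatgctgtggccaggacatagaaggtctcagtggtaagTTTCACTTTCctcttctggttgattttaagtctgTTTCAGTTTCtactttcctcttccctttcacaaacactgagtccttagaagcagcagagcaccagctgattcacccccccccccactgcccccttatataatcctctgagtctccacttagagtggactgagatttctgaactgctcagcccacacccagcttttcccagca
Rsad2: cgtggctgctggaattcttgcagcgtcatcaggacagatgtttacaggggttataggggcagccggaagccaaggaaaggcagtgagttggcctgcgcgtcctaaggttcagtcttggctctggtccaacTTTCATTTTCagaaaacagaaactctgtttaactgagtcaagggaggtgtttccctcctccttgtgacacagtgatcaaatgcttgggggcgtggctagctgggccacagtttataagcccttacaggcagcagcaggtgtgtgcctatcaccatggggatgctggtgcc
Irf7: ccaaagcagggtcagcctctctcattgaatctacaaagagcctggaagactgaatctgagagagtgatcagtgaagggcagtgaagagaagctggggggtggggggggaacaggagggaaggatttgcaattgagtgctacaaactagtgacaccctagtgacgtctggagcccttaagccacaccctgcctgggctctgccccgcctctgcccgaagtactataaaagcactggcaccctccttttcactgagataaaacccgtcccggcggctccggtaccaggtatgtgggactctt
Psmb8: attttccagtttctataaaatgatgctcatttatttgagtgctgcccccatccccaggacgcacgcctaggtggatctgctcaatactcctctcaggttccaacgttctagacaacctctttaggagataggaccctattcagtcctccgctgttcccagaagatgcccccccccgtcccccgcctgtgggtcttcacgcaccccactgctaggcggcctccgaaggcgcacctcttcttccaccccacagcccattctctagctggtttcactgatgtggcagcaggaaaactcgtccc
Ifit3 held 2 matches, Rsad2 1, and Irf7 and Psmb8 none, which says only that these letters are not in these windows. A promoter entry was found for 26 of the 34 members, of which 14 held the letters (53.8%). Counted by promoter it was 14 of 29 (48.3%), against 1131 of 32851 promoters of all genes (3.44%). A match of letters is a description and not a bound site.

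Contractile genes followed the same course. Of 27 contractile and SRF or YAP target genes 26 passed, 17 were higher at Cre D7, none lower, and the median was 1.25. Acta2, smooth muscle actin, was at 457 at Cre D7 and 47.3 at Cre D2 (9.66-fold, 9.24 to 10.1), with 507 at D0. Ccn2, a matricellular protein and YAP target, was at 92.9 on D7 and 2.97 on D2 (31.3-fold, 27.1 to 36.4), and Tagln, an actin-binding protein, at 230 on D7 and 14 on D2. The list's median RPKM was 69.1 before induction, 54.7 after 4 hours, 23.7 on D2 and 75.8 on D7, and 25 of the 26 lay within 1 of D0 at D7. In Vec 25 passed, 16 rose and none fell, with a median of 1.35.

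Of 31 fibrillar matrix genes 30 passed, 18 rose and none fell, with a median of 1.15. In Vec 30 passed, 18 rose and none fell, with a median of 1.31. Col1a1, the main fibril collagen, was at 1521 on D7 and 662 on D2, Lox, which cross-links collagen, at 578 on D7 and 114 on D2, and Mfap5, a microfibril protein, at 20.6 on D7 and 0.401 on D2. The basement membrane list was different: 5 rose and 1 fell of 24 that passed among 27, with a median of 0.22. Its fall was Col15a1 (57.7 at D7 against 283 at D2), one of the 20 largest, and Lamb1 (83.2 at D7 against 155 at D2) and Lamc1 (76.5 at D7 against 96.6 at D2) moved by less than 1. Of 27 proteases and inhibitors 21 passed and 6 rose, including Plau, urokinase (14.7 at D7 against 2.16 at D2).

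Signalling ligands and their antagonists rose along with matrix genes. In the TGFβ, BMP and Wnt list 32 of 38 genes passed, 18 rose and 1 fell, with a median of 1.09. Among ligands Bmp4 was at 4.83 on D7 and 0.151 on D2, Inhba, an activin subunit, at 24 on D7 and 4.41 on D2, and Tgfb3 at 21.6 on D7 and 5.71 on D2. Tgfb2 was the one that fell, 4.42 at D7 against 16.5 at D2 (3.74-fold lower, 3.40 to 4.13). Antagonists rose too, Grem1 of BMPs (52.8 at D7 against 17.2 at D2), Fst of activins (29.4 at D7 against 6.87 at D2) and Dkk2, a modulator of Wnt (37.5 at D7 against 5.80 at D2). The receptors Tgfbr1 (8.94 at D7 against 17.4 at D2), Tgfbr2 (45.9 at D7 against 42.1 at D2) and Bmpr1a (22.3 at D7 against 21.3 at D2) did not pass the size rule. In Vec 31 of the TGFβ, BMP and Wnt list passed, 14 rose and 3 fell, with a median of 0.93. Preadipocyte genes gave 7 higher and 1 lower of 24 that passed among 32. Ly6a, the surface protein Sca1 (183 at D7 against 34.9 at D2), and Thy1 (92.7 at D7 against 22.1 at D2) rose, and Dlk1, the preadipocyte factor Pref-1, was at 134 on D7 and 91.2 on D2.

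**Figure D4:**
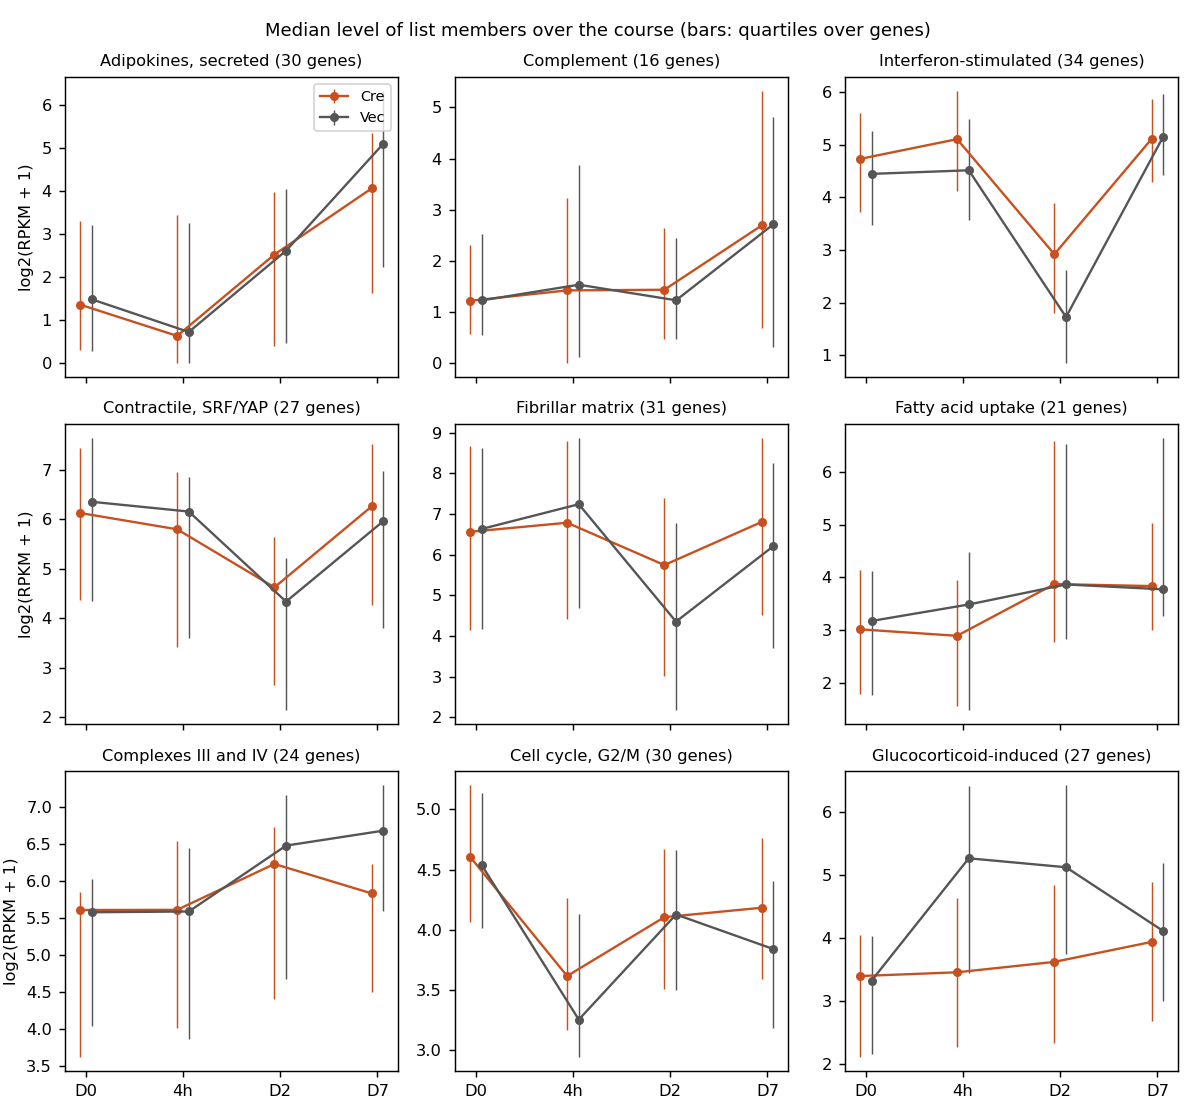
Median level of list members as log2(RPKM + 1) at D0, 4h, D2 and D7, Cre in orange and Vec in grey, with bars for the quartiles over genes and 1 library per point. The interferon and contractile lists dip at D2 and return at D7 in both lines, while the adipokine list climbs to its highest level at D7.

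Inflammatory genes leaned upward, and insulin and IGF pathway genes went both ways. Of 33 chemokine, NF-κB and acute-phase genes 27 passed, 9 rose (33.3%) and 2 fell (7.41%). Over all genes the shares were 7.41% higher and 2.07% lower. The list's median was 0.77, and 20 of the 27 had a positive difference. In Vec 26 passed, 16 rose and 2 fell, with a median of 1.14. Ccl2, a monocyte attractant, was at 44.6 on D7 and 7.02 on D2, and Steap4, a metalloreductase, at 11.6 on D7 and 1.26 on D2. Ccl11 (1.02 at D7 against 4.11 at D2) and Cxcl1 (2.05 at D7 against 5.68 at D2) fell. Among 26 insulin and IGF pathway genes 5 rose (19.2%) and 2 fell (7.69%). The binding proteins of IGF led in both directions: Igfbp6 was at 40.5 on D7 and 6.79 on D2, Igfbp3 at 54.1 on D7 and 17.0 on D2, and Igfbp4 at 96.9 on D7 and 304 on D2.

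Proliferation genes stood still at this scale. None of 57 S phase and G2/M genes changed by 1, the median was 0.03 and the range ran from -0.44 to 0.54. The promoter letters TTTGAA, the core of the cell cycle homology region, were in 19 of 25 promoters of the G2/M list (76.0%), against 17.9% of all promoters. Ccnd1, cyclin D1, rose (15.8 at D7 against 1.97 at D2), and Gdf15, a stress cytokine, fell (10.4 at D7 against 34.2 at D2). These were the 2 changes among 27 genes that passed of 29 in a separate list of cyclin-dependent kinase regulators and p53 targets. In the unfolded protein and integrated stress list 0 of 25 rose and 2 fell, Mthfd2 (30.6 at D7 against 70.1 at D2) and Dnajb9 (10.0 at D7 against 21.7 at D2). The lower share was 8%, against 2.07% over all genes, and the median was -0.34. In Vec 0 of 25 rose and 12 fell, with a median of -0.92, against 5.01% lower over all genes in Vec.

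Genes that glucocorticoids induce showed little net movement in the receptor-deleted cells. Of 27 listed genes 26 passed, 3 rose, 3 fell, and the median was 0.05; in Vec 27 passed, 2 rose, 10 fell, and the median was -0.89. Fkbp5, a receptor cochaperone and classical target, was at 14.3 at Cre D7 and 15.4 at Cre D2, against 15.0 at Vec D7 and 127 at Vec D2. Tsc22d3, which encodes GILZ, was at 12.9 on Cre D7 and 21.7 on Cre D2, and at 16.5 on Vec D7 and 103 on Vec D2. The list's median RPKM in Cre was 9.54 before induction, 9.98 after 4 hours, 11.3 on D2 and 14.3 on D7; in Vec it was 9.01, 37.4, 33.8 and 16.3. The 3 that rose in Cre were Tgm2, transglutaminase (34.7 at D7 against 4.26 at D2), Gpx3 and Pdk4, and the 3 that fell were Angptl4, Lpin1 and Ddit4 (32.5 at D7 against 77.8 at D2).

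Cre and Vec responses were then set against each other by size. Among the 2231 genes past 1 in at least 1 line, the Cre difference was lower than the Vec difference by at least 1 for 362 genes (16.2%) and higher by at least 1 for 194 (8.7%). With 1 library in each of the 4 groups this difference was not tested. Adipoq, Adrb3, Cox7a1 and Mb were among the 10 named genes with the widest gaps below Vec. Adipoq rose 2.72-fold in Cre, where it was at 391 at Cre D7 and 144 at Cre D2. In Vec it rose 17.1-fold, with 1021 at Vec D7 and 59.7 at Vec D2. Its level was thus higher in Cre than in Vec at D2 and lower in Cre at D7. Adrb3 was at 16.8 on Cre D7 and 2.50 on Cre D2, and at 52.8 on Vec D7 and 0.682 on Vec D2. Cox7a1 was at 4.98 on Cre D7 and 0.515 on Cre D2, and at 41.2 on Vec D7 and 0.473 on Vec D2, and Mb, myoglobin, at 2.53 on Cre D7 and 0.214 on Cre D2, and at 28 on Vec D7 and 0.164 on Vec D2. Several of the genes on the other side, such as Fkbp5, Scara5 and Adamts15, were high at Vec D2 and not at Cre D2. Adamts15, for one, was at 4.95 on Cre D7 and 5.19 on Cre D2, and at 5.70 on Vec D7 and 43.2 on Vec D2. At D7 itself 173 genes were at least 1 higher in Cre than in Vec (1.39% of 12480) and 389 lower (3.12%).

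**Figure D5:**
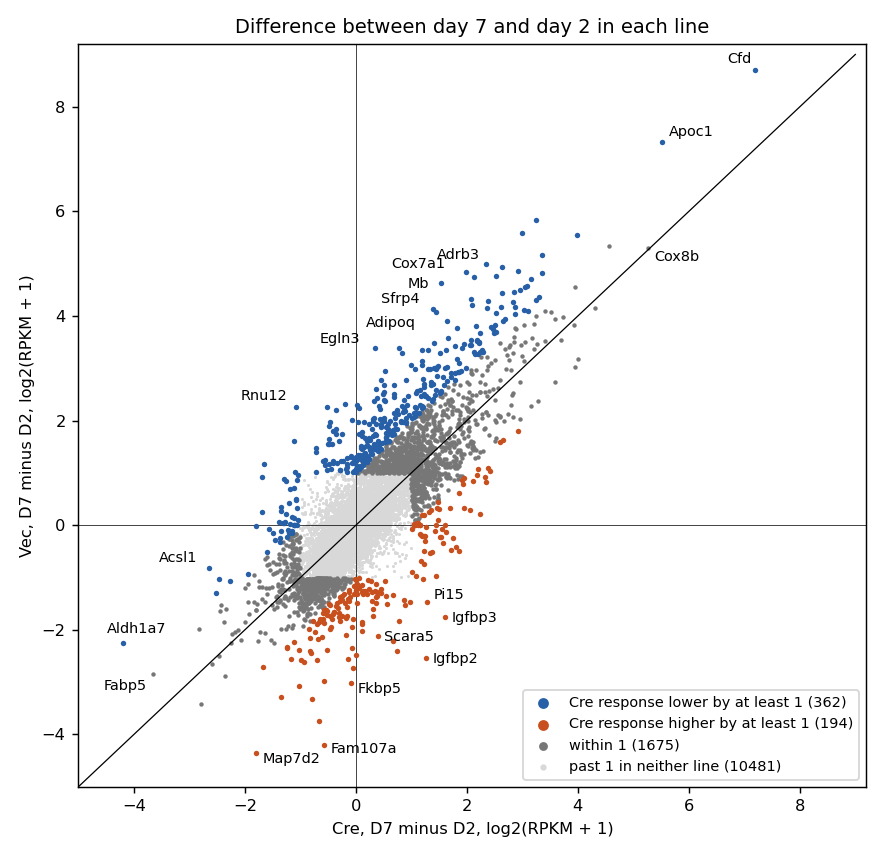
Difference between D7 and D2 on the log2(RPKM + 1) scale in Cre (horizontal) and in Vec (vertical) for each gene, with a line of equality. Blue genes (362) have a Cre difference at least 1 below the Vec difference, orange genes (194) at least 1 above, dark grey genes (1675) lie within 1, and light grey genes (10481) are past 1 in neither line.

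Markers of other cell types were read in the same 2 libraries. Of 38 skeletal muscle genes 18 passed, 7 rose and none fell, and the summed RPKM of the list was 76.7 at Cre D7 and 26.1 at Cre D2, against 70.3 at Vec D7 and 17.4 at Vec D2. Acta1 gave the most of it (18.7 at D7 against 3.10 at D2); Pax7 had 0 reads in both Cre libraries, and Myod1 was at 0.611 on D7 and 0.569 on D2. Of 10 smooth muscle and pericyte markers 7 passed and 3 rose, Tagln, Acta2 and Cnn1, all members of the contractile list, and the sum was 738 at D7 and 88.9 at D2; Kcnj8 and Abcc9 had 0 reads at D2. Endothelial markers summed to 6.59 at D7 and 6.15 at D2 over 12 genes, with none past 1, and Pecam1 was at 0.0125 on D7 and 0.0929 on D2. Macrophage and leukocyte markers summed to 3.13 at D7 and 0.827 at D2 over 13 genes, of which 7 had 0 reads at each time. Schwann and neural markers summed to 19.4 at D7 and 4.58 at D2 over 8 genes, of which Tubb3 made 13.2 at D7 and 1.68 at D2. Epithelial and mesothelial markers summed to 6.91 at D7 and 3.12 at D2 over 10 genes and erythroid markers to 1.13 at D7 and 1.62 at D2 over 5. Fibroblast markers summed to 3033 at D7 and 1579 at D2 over 10 genes, and 10 mature adipocyte markers to 2573 at D7 and 1562 at D2. Cfd gave most of the difference in the adipocyte sum, with 966 at Cre D7 and 5.60 at Cre D2. Of these 10 genes 4 rose, 1 fell and 5 moved by less than 1, with a median difference of 0.46. The part of such cells in these differences was not tested.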

How the data were processed

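Messenger RNA of 8 libraries was sequenced, 1 per line and time; 22 ChIP samples of the series were not analysed here. For each library the authors deposited a read count and an RPKM value for every RefSeq transcript accession, as the column names per the file headers say. The read count is not normalized, and the deposited RPKM values, per the file headers, are scaled to transcript length and library total. The submitters' processing notes name CASAVA 1.8.2, SICER and the build mm9. The sources used here do not name the aligner or counter of the RNA reads.

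Library totals were recovered from the ratio of count to RPKM. Of 29082 accessions 28432 (97.8%) matched a symbol in a RefSeq table of GRCm38.p6, used for names and promoter sequences only. For 3760 symbols with several accessions, the accession most read over all 8 libraries was kept. Differences are of log2(RPKM + 1). Intervals were computed with scipy 1.17.1 in Python 3.11.15. They were tested on simulated counts that held counting error only, so that test does not cover other variation between libraries. edgeR 4.0.16 in R 4.3.3 gave TMM factors only. Against 0 reads a ratio is a bound over 3 reads per library, and with both libraries at 3 reads or fewer none is given. Counting error alone is in these intervals and bounds, since PCR copies are not independent molecules.

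The members and lists were chosen with earlier results of these data known. Named genes are Nr3c1, in each list the 8 with the largest difference and members whose role is described, the 20 largest differences in each direction, and the 10 largest differences between the lines in each direction, leaving out uncharacterised and non-coding loci by the first or last letters of their symbols, which does not catch the small nuclear RNA Rnu12. Alternatives were other pseudocounts, level filters, scalings and ways of joining accessions.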

Additional observations from a re-analysis of the deposited data

Results flagged for a closer look

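Igfbp2, an IGF binding protein, moved in opposite directions in the lines: its difference between D7 and D2 was 1.26 in Cre and -2.53 in Vec on the log2(RPKM + 1) scale. It was at an RPKM of 5.28 at Cre D7 and 1.62 at Cre D2, and at 3.28 at Vec D7 and 23.8 at Vec D2. Igfbp3, another IGF binding protein, differed by 1.61 in Cre and -1.75 in Vec, with 54.1 at Cre D7 and 17.0 at Cre D2, and 56.9 at Vec D7 and 193 at Vec D2. Pi15, a protease inhibitor, differed by 1.28 in Cre and -1.46 in Vec. Rnu12, a small nuclear RNA, differed by -1.07 in Cre and 2.27 in Vec, on 18 reads at Cre D7 and 45 at Cre D2. With 1 library per group, none of these differences between the lines was tested.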

How the results depend on the processing

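The number of genes higher at Cre D7 was 919. A pseudocount of 5 in place of 1 gave 346 of the same 12404 genes. A level filter of RPKM 5 gave 609, but of only 9075 genes that passed it. The number lower was 257, with 410 at a pseudocount of 0.1 and 102 at a pseudocount of 5. The counts so depend on the pseudocount, which sets how much weight low genes carry. List counts moved with it. At a pseudocount of 5 the β-adrenergic list had 1 higher and 2 lower, in place of 7 and 5. Thermogenic genes had 2 higher in place of 6, and brown regulators 0 higher and 0 lower in place of 2 and 1. The adipokine list had 13 higher in place of 16. The other settings stayed within 1.5 times: TMM scaling gave 932 higher and 251 lower, median-of-ratios scaling 966 and 238, summing the accessions of a gene 993 and 267, and asking in addition that the counting interval of the fold exclude a fold of 1 gave 895 and 237. A pseudocount of 0.1 gave 1312 higher, and a filter of RPKM 5 gave 213 lower. Both scalings moved the median of all genes by at most 0.04. No paired analysis was possible because each group holds 1 library, and no library could be left out. Levels near the floor of 3 reads, Ucp1 among them, are limited by depth.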
